A study of Homo sapiens and Mus musculus with 16 samples.

Results

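The accessible chromatin described here lies at 10 genes of the epithelial-mesenchymal transition (EMT): ZEB1, ZEB2, SNAI1, SNAI2, TWIST1, PRRX1, VIM, CDH2, CDH1 and GRHL2. Regions were chosen by position alone, as those overlapping the GENCODE gene body or the 50 kb on either side of it, in hg38 for human cells and at the mouse orthologs in mm10 for mouse cells. Of 364071 regions in 4 ATAC-seq lists, 426 met this rule. ATAC-seq marks open chromatin by the insertion of a transposase into DNA that nucleosomes leave free. HPAF-II, an established human pancreatic adenocarcinoma line, was profiled after CRISPR knockout of HNF4G (HNF4G-KO), a nuclear receptor gene, and as CRISPR-Cas9 control cells with a WT genotype label. The remaining cells were untreated lines of the KPC mouse model of pancreatic cancer, 1 line from a primary tumor and 1 from liver metastases (mets), both labeled WT and treated by the study as matched and isogenic. According to the methods, HNF4G-KO cells were a pool of 3 single-cell clones with frameshift mutations, without a word on which were taken for ATAC-seq, and each KPC condition is 1 cell line. Each of the 4 groups had 4 samples but 1 region list, so that no value below has a replicate error or a test, and the sequencing depth behind it is unknown.

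The loci held 122 of 118107 regions in control, 99 of 97047 in HNF4G-KO, 96 of 68074 in the primary tumor and 109 of 80843 in mets. A region was shared if it overlapped the other list of its pair by at least 1 bp. Region strength is given as a percentile: the share of the regions of a list, with ties at their mean rank, at or below the score the authors deposited for that region. Intervals on shares are Wilson 95% intervals, which cover counting error only. All 5 markers of epithelial pancreatic cancer cells that were examined (EPCAM, KRT8, KRT18, KRT19 and CDH1) had a region over a start site in every list. Of all protein-coding genes 65.7% in control, 65.4% in HNF4G-KO, 52.3% in the primary tumor and 51.9% in mets had one. A set of 20 epithelial genes, described below, includes EPCAM, KRT8, KRT18 and KRT19 again. Of these 20, all had one in both HPAF-II lists, but 14 in the primary tumor and 11 in mets. Fibroblast markers had one at 1 of 6 genes in each HPAF-II list (COL1A1) and at 0 of 6 in each KPC list, endothelial markers at 0 of 3 in each HPAF-II list and 1 of 3 in each KPC list (Kdr), and leukocyte markers at 1 of 4 in every list (CD68). Hepatocyte markers had one at 1 of 4 genes in each HPAF-II list (SERPINA1), and of the 3 found in the mouse annotation 1 in the primary tumor (Ttr) and 0 in mets. HNF4G itself had 2 regions within 1 kb of a start site in both HPAF-II lists, the stronger at percentile 82.4 in control and 82.7 in HNF4G-KO, and an accessible start site does not check a coding deletion.

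EMT is the reversible program by which epithelial cells loosen their junctions, lose apical-basal polarity and gain motility. It is driven by a small set of transcription factors: the zinc-finger repressors ZEB1, ZEB2, SNAI1 (Snail) and SNAI2 (Slug), the basic helix-loop-helix factor TWIST1 and the paired-related homeobox factor PRRX1. ZEB and SNAI proteins repress CDH1, the gene of the adherens junction protein E-cadherin, through E-boxes. GRHL2 acts in the opposite direction, as an activator of epithelial genes and a repressor of ZEB1, while the intermediate filament gene VIM and the N-cadherin gene CDH2 mark the mesenchymal state. In pancreatic cancer these states have been tied to invasion and to the divide between classical and less differentiated tumors.

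A few sequences are shown first, mostly of regions in one list alone or ranking higher in HNF4G-KO or mets, and, apart from the ZEB1 promoter, none of a shared region that ranked lower there. They comprise a ZEB1 promoter (RefSeq, the 250 bases before the start), the strongest regions listed in control, HNF4G-KO or mets alone, and the regions of the VIM, Snai1 and Grhl2 loci whose percentile was most above that of the other list among 1-to-1 pairs. All are plus strand, 5′ to 3′, and regions over 300 bases are given by their central 300. Capitals mark any match, on either strand, to 1 of 8 short motifs: the ZEB/SNAI E-box CAGGTG, the TWIST E-box CATCTG, AP-1 TGAGTCA, FOXA TGTTTAC, HNF4 CAAAGTCCA, GRHL AACCGGTT, RUNX TGTGGTTT and TEAD ACATTCCA. Promoter sequence was matched for 5 of the 10 genes (ZEB1, ZEB2, PRRX1, VIM and CDH2).
ZEB1 promoter, chr10:31318167-31318416 (GRCh38.p14): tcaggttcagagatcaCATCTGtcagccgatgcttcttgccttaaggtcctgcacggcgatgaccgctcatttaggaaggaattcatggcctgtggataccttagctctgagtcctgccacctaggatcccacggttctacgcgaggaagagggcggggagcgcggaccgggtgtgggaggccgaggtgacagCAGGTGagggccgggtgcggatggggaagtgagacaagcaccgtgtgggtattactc
ZEB2 control-alone region, chr2:144343200-144343490 (hg38): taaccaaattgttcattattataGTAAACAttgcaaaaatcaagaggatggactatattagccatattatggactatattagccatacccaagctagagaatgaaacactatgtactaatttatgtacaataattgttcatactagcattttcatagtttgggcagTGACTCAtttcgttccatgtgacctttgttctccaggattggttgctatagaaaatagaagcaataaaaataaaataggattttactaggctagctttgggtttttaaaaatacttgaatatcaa
VIM HNF4G-KO-alone region, chr10:17206466-17206668 (hg38): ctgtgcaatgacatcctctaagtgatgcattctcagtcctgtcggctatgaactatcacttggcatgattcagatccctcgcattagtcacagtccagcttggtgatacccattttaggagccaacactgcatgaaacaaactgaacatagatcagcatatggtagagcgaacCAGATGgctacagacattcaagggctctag
VIM downstream region, chr10:17249786-17250043 (hg38): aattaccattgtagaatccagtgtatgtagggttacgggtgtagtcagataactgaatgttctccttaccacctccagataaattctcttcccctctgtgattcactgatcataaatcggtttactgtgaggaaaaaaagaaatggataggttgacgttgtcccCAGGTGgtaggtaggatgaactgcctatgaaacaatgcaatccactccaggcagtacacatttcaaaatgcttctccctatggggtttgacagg
Zeb2 mets-alone region, chr2:44977634-44977911 (mm10): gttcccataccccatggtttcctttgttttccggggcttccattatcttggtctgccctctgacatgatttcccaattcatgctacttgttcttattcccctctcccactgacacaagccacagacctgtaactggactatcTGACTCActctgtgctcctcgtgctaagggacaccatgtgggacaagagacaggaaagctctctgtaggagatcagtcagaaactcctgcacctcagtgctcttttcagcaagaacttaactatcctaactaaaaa
Snai1 proximal downstream region, chr2:167543707-167544006 (mm10): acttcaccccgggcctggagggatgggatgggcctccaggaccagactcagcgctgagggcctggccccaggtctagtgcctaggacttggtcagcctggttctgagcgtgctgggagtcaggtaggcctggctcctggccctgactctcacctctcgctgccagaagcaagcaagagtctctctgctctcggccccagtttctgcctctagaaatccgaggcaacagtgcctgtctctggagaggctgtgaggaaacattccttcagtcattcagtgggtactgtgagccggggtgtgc
Snai1 distal downstream region, chr2:167550434-167550681 (mm10): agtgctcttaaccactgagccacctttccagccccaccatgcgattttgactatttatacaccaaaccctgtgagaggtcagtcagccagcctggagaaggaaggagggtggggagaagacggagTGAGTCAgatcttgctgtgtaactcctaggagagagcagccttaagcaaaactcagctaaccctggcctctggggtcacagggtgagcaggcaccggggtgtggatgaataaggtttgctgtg
Grhl2 upstream region, chr15:37192900-37193199 (mm10): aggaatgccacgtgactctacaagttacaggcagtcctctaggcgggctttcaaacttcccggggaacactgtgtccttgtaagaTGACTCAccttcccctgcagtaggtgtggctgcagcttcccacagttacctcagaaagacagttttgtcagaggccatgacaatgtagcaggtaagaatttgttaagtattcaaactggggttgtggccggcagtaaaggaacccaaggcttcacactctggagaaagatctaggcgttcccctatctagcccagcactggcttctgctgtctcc

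The ZEB1 promoter held 1 CAGGTG and 1 CATCTG. In the 250 bases before the start, CAGGTG or its reverse complement was present in 17.5% of 35116 RefSeq promoters (GRCh38.p14) and CATCTG or its complement in 12.2%, and ZEB1 was the only matched member with the former. The control-alone ZEB2 region held an AP-1 match and a FOXA match. An AP-1 match was also present in the mets-alone Zeb2 region, in the distal Snai1 region and in the Grhl2 region, while the proximal Snai1 region held none of the 8 motifs in the 300 bases shown. None of the printed regions overlapped an annotated exon. A match is a description of letters and does not show that a factor was bound.

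The number of regions differed widely among the 10 genes, as the plot of regions per locus shows. In control, ZEB1 (4 regions in 311320 bp), PRRX1 (3 in 176694 bp), TWIST1 (5 in 196646 bp) and ZEB2 (8 in 256694 bp) were sparse, at 1.29, 1.70, 2.54 and 3.12 regions per 100 kb against a median of 6.82 over protein-coding genes. SNAI1 was the densest, with 18 regions at 17.0 per 100 kb, higher than in 97.5% of protein-coding genes counting ties at their mean rank. The epithelial genes CDH1 (21 regions) and GRHL2 (25 regions) had 10.6 and 9.02 per 100 kb. The HNF4G-KO list gave the same 4 sparse genes and again placed SNAI1 highest, at 12.3 per 100 kb against a median of 5.78. In the KPC lines Snai1 and Cdh1 were the densest, with 12.4 and 14.4 regions per 100 kb in the primary tumor and 17.2 and 13.8 in mets, against medians of 4.74 and 5.54, whereas Twist1 had no region within 50 kb in either list. Zeb1 and Zeb2 were closer to the median than in HPAF-II, with 3.88 and 4.71 regions per 100 kb in the primary tumor and 4.58 and 5.56 in mets.

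**Figure D1:**
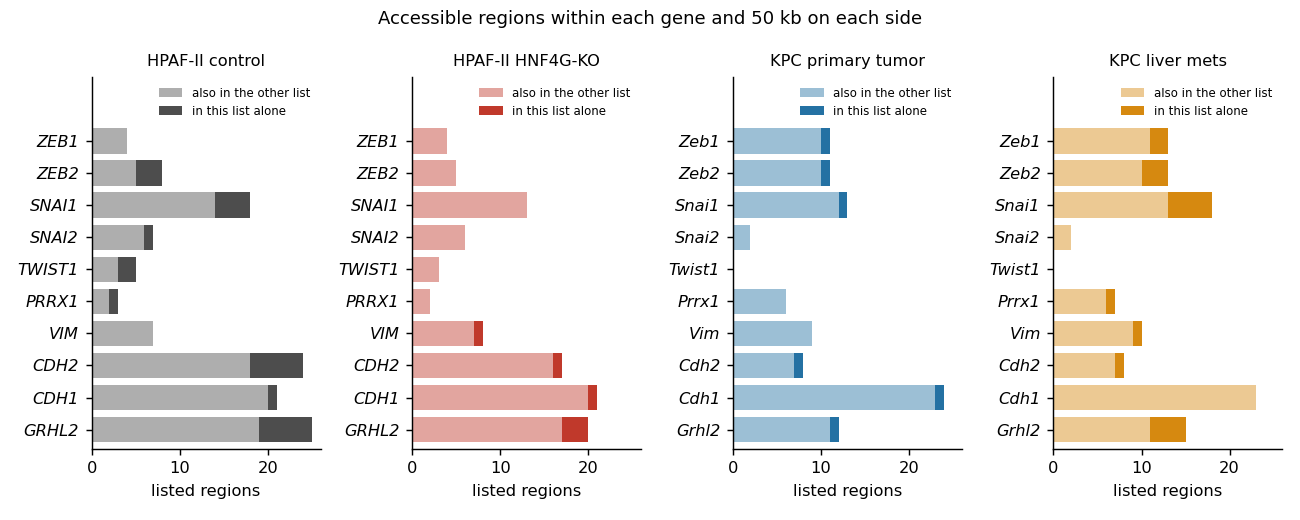
Listed regions overlapping each gene or the 50 kb on either side (x axis, number of regions) in the 4 lists, split into those also present in the other list of the pair (pale) and those in that list alone (dark). CDH1, CDH2 and GRHL2 had the most regions in both HPAF-II lists, Cdh1 led in both KPC lists with 24 and 23 regions, and Twist1 had 0.

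A region lay within 1 kb of a coding start site of 7 of the 10 genes in each HPAF-II list, against 72.5% of protein-coding genes in control and 70.6% in HNF4G-KO. In the KPC lists this held for 8 of 10 genes, against 56.8% in the primary tumor and 57.7% in mets. ZEB2, TWIST1 and PRRX1 had none in HPAF-II, and Twist1 and Prrx1 had none in KPC. Inducers of EMT as well as epithelial genes were thus among those with a region at a start site.

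ZEB1 and ZEB2 were considered first among the transcription factors. At ZEB1 (hg38 chr10:31318495-31529814) all 4 regions were shared in HPAF-II. The region over the start site, chr10:31318194-31319607, was at percentile 78.9 in control and 72.1 in HNF4G-KO, and the strongest region of the locus, in an intron 35274 bp downstream of the 5′ end, was at 86.5 and 73.1. The remaining intronic regions were at 67.0 and 67.6 and at 24.4 and 17.3, so that 3 of the 4 ranked lower in HNF4G-KO (median change −6.95 points). Over all 88632 control regions shared with HNF4G-KO the median was −4.65 and 70.0% ranked lower, a reference needed throughout because the 2 lists differ in length. In the 5 Mb on each side of ZEB1, without the locus, the median was −1.15 over 348 shared regions. By rank within the shared set alone, 2 ZEB1 regions were lower and 2 higher.

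ZEB2 (hg38 chr2:144364364-144521057) had 8 regions in control and 5 in HNF4G-KO, and none lay within 1 kb of its start sites. Its strongest control region, chr2:144357735-144358413, was intergenic beyond the 3′ end of the gene and was at percentile 94.1 in control and 85.9 in HNF4G-KO. The next, at a promoter of the neighboring gene GTDC1, was at 92.4 and 96.7. Of the 8 control regions 3 were absent from HNF4G-KO, among them the region printed above, chr2:144343200-144343490, at percentile 46.5 the strongest control-alone region of all 10 loci. Control-alone regions were also common around ZEB2, at 48.2% of 228 control regions within 5 Mb, against 25.0% of the control list.

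In KPC cells, Zeb1 (mm10 chr18:5591860-5775467) had 11 regions in the primary tumor and 13 in mets. The region just upstream of its start site was at percentile 29.7 in the primary tumor, and it overlapped 2 mets regions, the one nearest the start at 19.8 and another at 31.2. A second promoter region was at 32.5 and 24.8, and the strongest region, intronic and 148517 bp from the 5′ end, was at 94.0 and 93.2. The Zeb1 promoter regions were thus at percentiles of 19.8 to 32.5 in both lists. Zeb2 (mm10 chr2:44983632-45117395) had 11 and 13 regions. An internal start site was covered by a region at percentile 51.0 in the primary tumor and 56.6 in mets, and the 5′ end of the gene was covered in mets alone, by a weak region at 4.32. The strongest Zeb2 region, chr2:44969100-44969690, lay downstream of the gene and was at 98.0 and 96.1, and the strongest mets-alone region of all loci, chr2:44977634-44977911 at 50.2, lay close to it.

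SNAI1 and SNAI2 encode zinc-finger repressors of E-cadherin that act early in EMT. At SNAI1 (hg38 chr20:49982980-49988886) the start-site region chr20:49982225-49983262 was at percentile 81.9 in control and 91.3 in HNF4G-KO, 9.44 points higher. It was the strongest region of the locus in HNF4G-KO, whereas in control the strongest, at 82.2, lay 51148 bp downstream and was at 72.0 in HNF4G-KO. At SNAI2 (hg38 chr8:48917598-48921740) the start-site region was at 70.6 in control and 78.1 in HNF4G-KO, 7.47 points higher. For comparison, the median change over 13016 shared regions at coding start sites was −0.49 points with quartiles of −4.51 and 2.68, so both SNAI start-site regions were above the upper quartile. The ZEB1 start-site region, at −6.81 points, was below the lower quartile. Ranked among shared regions alone, the SNAI1 and SNAI2 regions were 14.8 and 15.6 points higher, against an upper quartile of 8.30. By that ranking ZEB1, at −1.84, was again below the lower quartile of −1.07.

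Away from the SNAI1 start site many regions ranked lower in HNF4G-KO, as did 70.0% of all shared regions. Of 5 shared intergenic regions upstream, 4 between 6087 and 17776 bp from the start, picked after their values were seen, were at percentiles 54.3, 70.9, 42.6 and 70.8 in control and at 31.8, 51.5, 18.8 and 54.4 in HNF4G-KO, and the nearest was at 33.9 and 36.1. Over the SNAI1 locus 9 of 14 shared regions were lower in HNF4G-KO (median −6.31 points). In the surrounding 5 Mb 67.8% of 655 shared regions were lower (median −3.51). By the ranking of shared regions only, 7 SNAI1 regions were lower and 7 higher. In addition, 4 of 18 control regions (22.2%) were in control alone, against 25.0% of the control list. The largest upward difference of all human loci, from 28.1 to 69.0 at chr20:49937652-49937895 in an intron of RNF114, arose because a single 2111 bp HNF4G-KO region spanned this 244 bp region and the RNF114 promoter region beside it. With 1-to-1 pairs alone, 8 of 12 SNAI1 regions were lower, with a median of −13.3, against 71.25% of all such pairs and a median of −4.89. At SNAI2 the strongest region, chr8:48923326-48923810, lay 1586 bp upstream and was at 91.2 and 89.5, and a region downstream of the gene, chr8:48902197-48902874, was at 64.5 in control and 28.3 in HNF4G-KO, the second-largest downward difference of all human loci. The 6 shared SNAI2 regions divided evenly, 3 lower and 3 higher.

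The Snai1 start-site region was also the strongest of its locus in both KPC lists. At Snai1 (mm10 chr2:167538195-167542814) it was at percentile 85.2 in the primary tumor and 92.0 in mets, and at Snai2 (mm10 chr16:14705852-14709385) at 79.5 and 83.1. Over 11014 shared regions at coding start sites the median change was 1.46 points with an upper quartile of 6.65, which placed Snai1, at 6.81 points higher, just beyond that quartile and Snai2, at 3.66, inside it. Snai1 held the largest difference of the KPC loci, at chr2:167543602-167544111, which was intergenic, 5661 bp downstream of the 5′ end, and was at 11.6 in the primary tumor and 63.6 in mets. The listed region was also wider in mets, 1024 bp against 510 bp. A second region 12362 bp downstream, chr2:167550434-167550681, was at 13.6 and 57.4. Both pairs were 1-to-1. Of its 18 mets regions 5 (27.8%, 12.5 to 50.9) were absent from the primary tumor, against 20.2% of the mets list, at percentiles of 1.38 to 33.3. Snai2 had 2 regions, both shared.

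TWIST1 and PRRX1, which induce EMT in development and in carcinoma, had few regions and none within 1 kb of a start site. TWIST1 spans hg38 chr7:19020991-19117636 in GENCODE because of a long annotated transcript, while mouse Twist1 is a short gene (mm10 chr12:33957671-33959829), so the 2 windows differ in size. The strongest TWIST1 region, chr7:19100239-19101096, lay in an intron and was at percentile 93.0 in control and 75.9 in HNF4G-KO. The other shared TWIST1 regions were at 33.0 and 21.4 and at 42.6 and 48.1. Of the 5 control regions 2, at 14.7 and 33.0, were in control alone, against 25.0% of the control list. PRRX1 (hg38 chr1:170662728-170739421) had 2 shared regions, both intronic, at 91.4 and 87.4 and at 38.1 and 45.4. Prrx1 (mm10 chr1:163245119-163313710) had 6 regions in the primary tumor, all shared, of which 3 were lower and 3 higher in mets. The strongest in the primary tumor, 24947 bp upstream, was at 89.7 and 90.4, and the strongest in mets, intronic, was at 85.8 in the primary tumor and 91.1 in mets. An intronic region centered 1495 bp from the 5′ end was at 69.2 and 55.7.

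**Figure D2:**
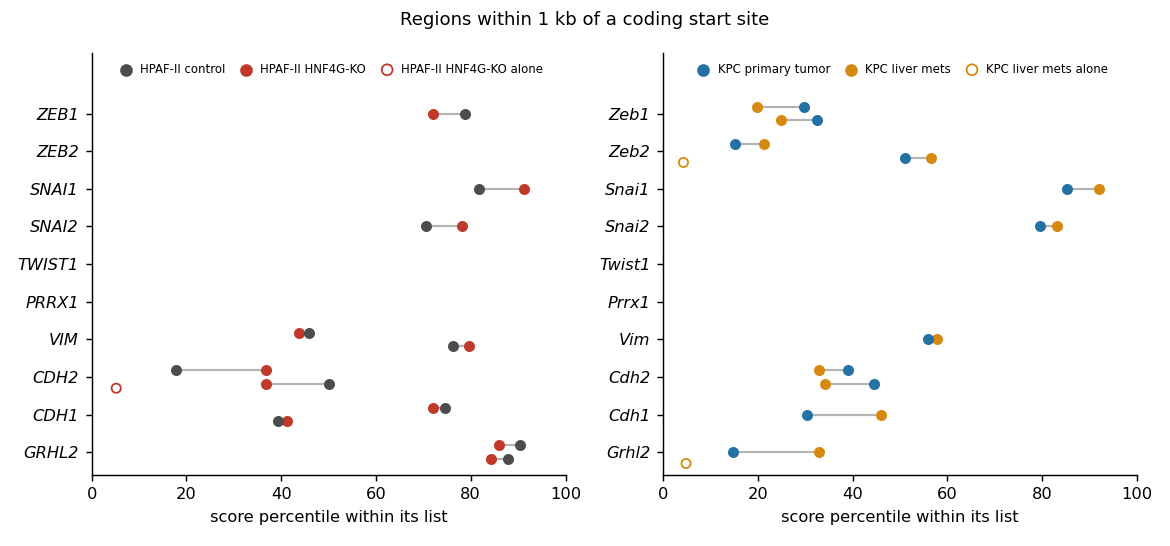
Score percentile within its list (x axis) of each control or primary tumor region within 1 kb of a coding start site, joined by a line to its partner in the other list, with regions in HNF4G-KO or mets alone as open circles. The SNAI1, SNAI2, Snai1 and Snai2 regions lie to the right in HNF4G-KO and in mets, and the Cdh1 region moves from 30.4 in the primary tumor to 46.1 in mets.

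The mesenchymal structural genes differed from each other. VIM (hg38 chr10:17228241-17237593) encodes vimentin, the intermediate filament of mesenchymal cells. Its start-site region was at percentile 45.9 in control and 43.8 in HNF4G-KO, and a second promoter region, 431 bp from a start site in control, was at 76.3 and 79.6. The strongest region of the locus was the TRDMT1 promoter, at 96.6 and 94.6. All 7 control regions were shared, 3 lower and 4 higher in HNF4G-KO. The VIM downstream region printed above, chr10:17249786-17250043, was at 27.3 in control and 54.9 in HNF4G-KO, and the HNF4G-KO-alone region chr10:17206466-17206668, at 18.5, was the strongest of the 6 regions found in HNF4G-KO alone. Vim (mm10 chr2:13573927-13582826) had a start-site region at 55.9 in the primary tumor and 57.8 in mets. Its strongest region, 14713 bp upstream, was at 93.0 in both. Of its 10 mets regions 1, at 35.5, was in mets alone, against 20.2% of the mets list. The region over the VIM or Vim start site was therefore between 43.8 and 57.8 in all 4 lists.

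CDH2, which encodes N-cadherin, had the lowest median change of the human loci when all pairs were counted. At CDH2 (hg38 chr18:27932879-28177946) 16 of 18 shared regions ranked lower in HNF4G-KO, against 70.0% of all shared regions. The CDH2 median was −13.0 points, against −5.82 over 232 shared regions in the surrounding 5 Mb and −5.35 over the rest of the chromosome. Of these 18, 6 were at least 20 points lower and 0 at least 20 points higher, against 14.9% and 2.85% of all shared regions. The intronic region chr18:28114950-28115594 was at percentile 61.3 in control and 10.8 in HNF4G-KO, the largest downward difference at any human or mouse locus, and chr18:27942692-27943111, also intronic, was at 62.2 and 29.5. The strongest region, in an intron of another gene beyond the 3′ end, was at 94.95 and 94.86. A further 6 of the 24 control regions, all intronic, were in control alone, at percentiles of 3.24 to 40.4, against 25.0% of the control list. Among 1-to-1 pairs 13 of 14 were lower (median −10.6), against 71.25% of all such pairs (median −4.89). In that set the medians of SNAI1 (−13.3) and TWIST1 (−11.6) were lower than that of CDH2. With percentiles taken within the shared set, 12 of 18 were lower and the median was −2.47, against 0.676 genome-wide, so the size of the difference depended on the ranking.

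The CDH2 promoter differed in layout. In control 2 narrow regions lay just upstream without reaching the start, one 203 bp wide at percentile 17.9 that ended 41 bp away and one 302 bp wide at 50.1. In HNF4G-KO a single region of 702 bp at 36.8 spanned both and the start site, and a second region 824 bp away, at 5.19, was found in HNF4G-KO alone. CDH2 was the only gene with a region over a start site in HNF4G-KO and not in control.

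Cdh2 showed lower ranks along the whole locus in mets. At Cdh2 (mm10 chr18:16588877-16809246) all 7 shared regions ranked lower in mets than in the primary tumor, with a median of −10.3 points and a range of −23.4 to −3.52. Over 126 shared regions in the surrounding 5 Mb the median was 1.89, with 42.1% lower, and over all 62280 shared regions it was 3.67, with 35.1% lower. The 2 promoter regions were at 44.5 in the primary tumor and 34.2 in mets and at 39.1 and 32.8. The intronic region chr18:16674195-16674705 was at 67.6 and 44.2, and an upstream region over an exon of Gm15328, chr18:16815945-16816504, was at 42.1 and 24.3. Ranked among shared regions alone, all 7 were again lower, with a median of −16.0. The strongest Cdh2 region, at 73.8 and 70.3, was weaker than the strongest CDH2 region of HPAF-II, and 1 region was present in each list alone.

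**Figure D3:**
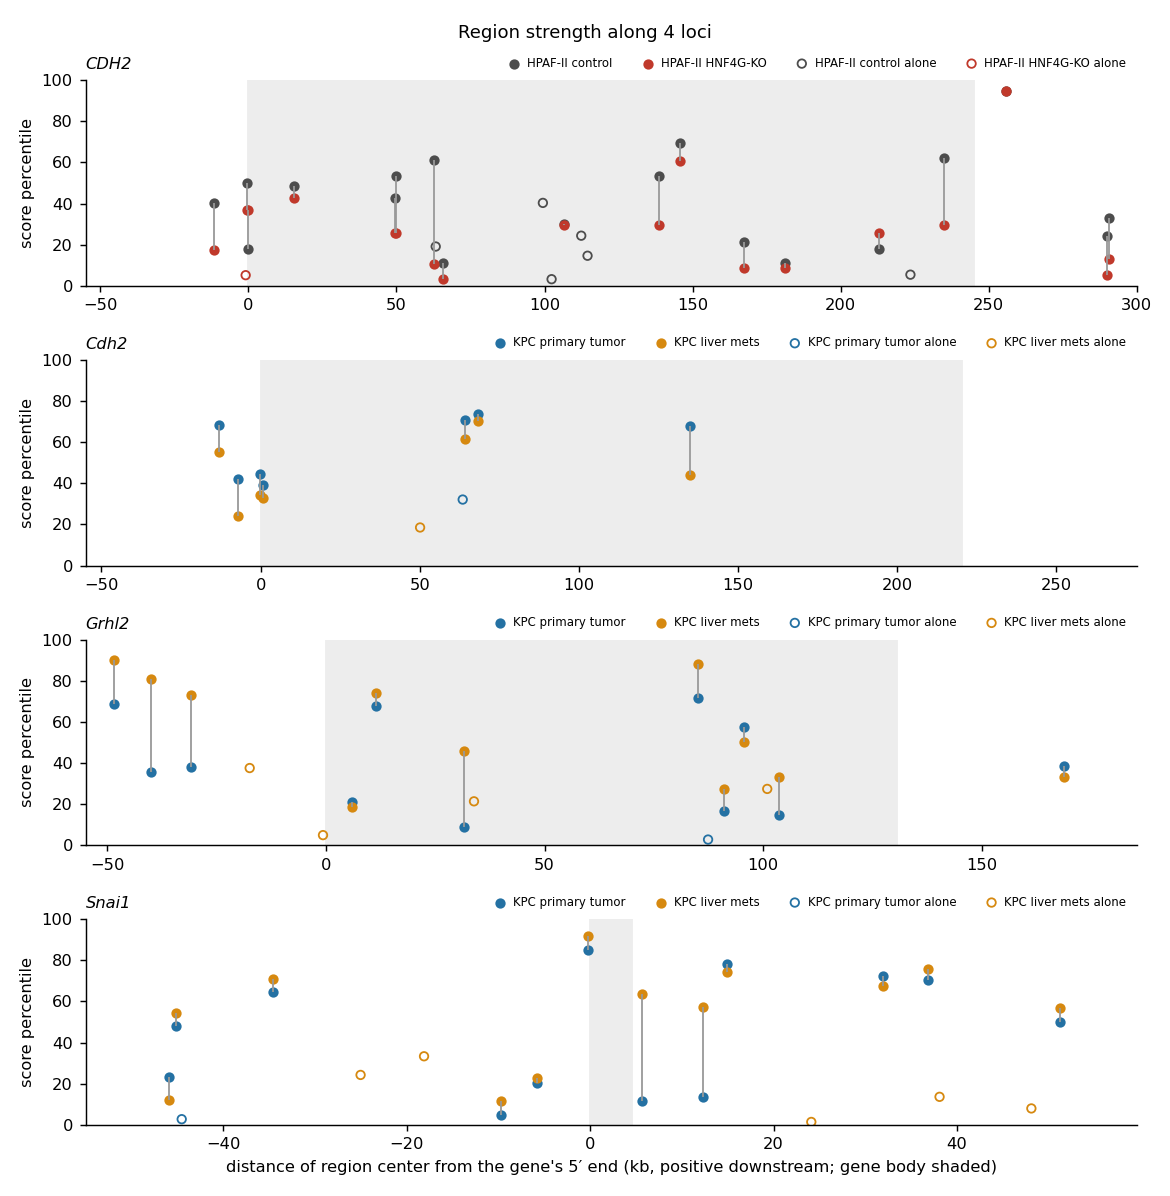
Score percentile (y axis) against the distance of each region's center from the gene's 5′ end in kb (x axis, positive downstream, gene body shaded) at CDH2 in HPAF-II and at Cdh2, Grhl2 and Snai1 in KPC cells, with shared regions joined by a line and one-list regions as open circles. The mets points lie below the primary tumor points at all 7 shared Cdh2 regions and above them at 8 of 11 Grhl2 regions. Over all shared KPC regions 35.1% ranked lower in mets and 64.9% higher.

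The epithelial genes were considered last. CDH1 (hg38 chr16:68737292-68835537), which encodes E-cadherin, had similar lists in HPAF-II. There were 21 regions in each list, 1 of them in each list alone, and of its 20 shared control regions 10 were lower and 10 higher in HNF4G-KO (median −1.24 points), or 8 and 12 by rank within the shared set. The start-site region chr16:68737073-68737623 was at percentile 74.6 in control and 72.1 in HNF4G-KO. The strongest region of the window, in an intron of CDH3, was at 93.3 and 95.5, and the strongest within CDH1, in an intron 18872 bp downstream of the 5′ end, was at 91.5 and 94.6.

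In KPC cells the Cdh1 start site ranked higher in mets. At Cdh1 (mm10 chr8:106603351-106670246) the region over the start site was at percentile 30.4 in the primary tumor and 46.1 in mets, 15.7 points higher, beyond the upper quartile of 6.65 for shared start-site regions, and 10.5 points higher when ranked among shared regions alone. Of 23 shared regions 14 were higher in mets (median 4.01), against a median of 0.457 over 342 shared regions in the surrounding 5 Mb and −0.237 over the rest of the chromosome. Over all shared regions 64.9% were higher, with a median of 3.67. The strongest region, in an intron of Tango6 114975 bp from the 5′ end, was at 99.95 and 99.90. An intronic region, chr8:106626079-106626645, was at 53.6 and 33.7, the second-largest downward difference of the KPC loci. None of the 23 mets regions was in mets alone, and 1 of the 24 primary tumor regions, at 8.16, was in that list alone. Over the whole lists these shares were 20.2% and 8.51%.

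GRHL2 encodes a grainyhead factor that maintains epithelial junctions. GRHL2 (hg38 chr8:101492439-101669726) had a strong start site in HPAF-II, at percentile 90.4 in control and 85.9 in HNF4G-KO, with a second promoter region at 87.9 and 84.2. Its strongest region, in an intron 143388 bp downstream, was at 93.5 and 87.4. Of 19 shared regions 16 were lower in HNF4G-KO, against 70.0% of all shared regions. The GRHL2 median was −4.95 points, close to the −6.69 over 335 shared regions in the surrounding 5 Mb. When ranked among shared regions alone 9 were lower and 10 higher. A further 6 of 25 control regions and 3 of 20 HNF4G-KO regions were in one list alone, against 25.0% and 6.76% of the lists.

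Grhl2 (mm10 chr15:37233036-37363569) had the highest median change of all loci. Of 11 shared regions 8 ranked higher in mets, against 64.9% of all shared regions. The Grhl2 median was 16.4 points, with a range of −7.48 to 45.2. The median was 2.36 over 307 shared regions in the surrounding 5 Mb and 3.70 over the rest of the chromosome. Ranked among shared regions alone the Grhl2 median was 12.1, again with 8 of 11 higher, against 0.988 and 54.6% over all shared regions. The 3 regions upstream of the gene were at percentiles 68.7, 35.5 and 38.1 in the primary tumor and at 90.3, 80.7 and 72.8 in mets, the middle one being the region printed above (chr15:37192835-37193263). An intronic region 31490 bp downstream was at 9.05 and 46.0. The strongest primary tumor region, also intronic, was at 71.6 and 88.0. The main start site had no region over it in either list, a weak region 475 bp from it, at 4.87, was present in mets alone, and a region near an internal start site was at 14.8 and 33.0. Of 15 mets regions 4 (26.7%, 10.9 to 51.95) were in mets alone, against 20.2% of the mets list. The larger Grhl2 differences thus lay upstream and in introns.

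**Figure D4:**
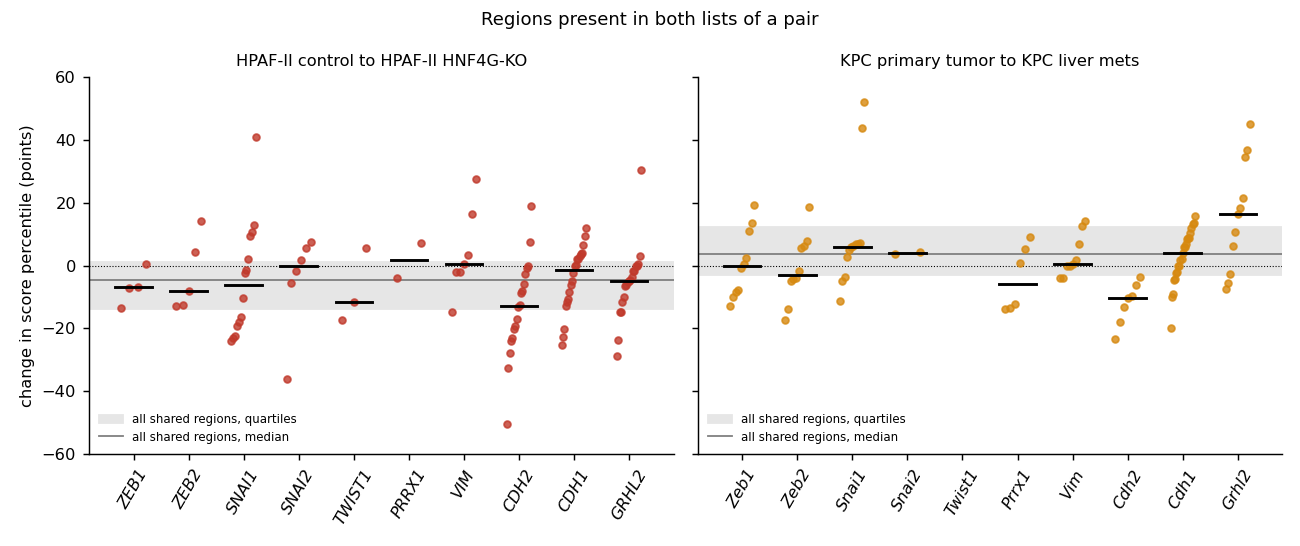
Change in score percentile (y axis, points, second list minus first) of every shared region at each locus, for control to HNF4G-KO and primary tumor to mets. Black bars mark locus medians, the gray line and band the median and quartiles of all shared regions, and the lowest and highest locus medians in KPC cells are those of Cdh2 at −10.3 and Grhl2 at 16.4.

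Over the 10 loci together, membership of the lists was close to that of the whole genome. In control 24 of 122 regions (19.7%, 13.6 to 27.6) were absent from HNF4G-KO, against 25.0% of all control regions, and in HNF4G-KO 6 of 99 (6.06%, 2.81 to 12.6) were absent from control, against 6.76%. In the primary tumor 6 of 96 (6.25%, 2.90 to 13.0) were absent from mets, against 8.51%, and in mets 17 of 109 (15.6%, 9.97 to 23.6) were absent from the primary tumor, against 20.2%. Every interval included the share of its whole list. The excess of control-alone over HNF4G-KO-alone regions turned around when the lists were first reduced by score to an equal size of 90% of the shorter list, to 9 of 88 control (10.2%, 5.47 to 18.3) and 13 of 89 HNF4G-KO regions (14.6%, 8.74 to 23.4), and in KPC cells the shares became 9 of 84 in the primary tumor (10.7%, 5.74 to 19.1) and 8 of 83 in mets (9.64%, 4.97 to 17.9). Over the whole lists the equal-size shares were 13.7% in control and 11.7% in HNF4G-KO, an order opposite to that at the loci, and 14.5% in the primary tumor and 13.0% in mets. Each of these lay inside the interval of its loci.

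One-list regions at the loci were weak. Their median percentile was 17.4 in control, 9.84 in HNF4G-KO, 6.81 in the primary tumor and 21.3 in mets, against 54.0, 48.1, 53.5 and 56.5 for the shared regions of the same loci. Weakness was general to such regions, with medians of 17.9, 11.5, 11.6 and 19.4 over all one-list regions of the lists. In the upper 50% by score, 0 of 54 control, 0 of 44 HNF4G-KO and 0 of 50 primary tumor regions were in one list alone, against 1.86%, 0.0556% and 0.503% of the same part of those lists, and 1 of 54 in mets, the Zeb2 region, against 4.17%. All 24 control-alone regions lay more than 1 kb from any coding start site. The same held for 5 of 6 HNF4G-KO-alone, 5 of 6 primary-tumor-alone and 15 of 17 mets-alone regions. The corresponding shares of all one-list regions are not given here. By role, transcription factor loci held 11 of the 24 control-alone regions, 0 of the 6 HNF4G-KO-alone regions, 3 of the 6 primary-tumor-alone regions and 11 of the 17 mets-alone regions. As shares of the regions at those loci, these were 24.4% in control, 6.98% in the primary tumor and 20.8% in mets, against 25.0%, 8.51% and 20.2% of the whole lists. In HNF4G-KO the share was 0 of 33 regions (0 to 10.4%), an interval that included the 6.76% of its list.

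Among shared regions, 15 of 98 (15.3%, 9.50 to 23.7) were at least 20 points lower in HNF4G-KO, against 14.9% of all shared regions, and 3 of 98 (3.06%, 1.05 to 8.62) at least 20 points higher, against 2.85%, of which those at SNAI1 and GRHL2 were regions that HNF4G-KO listed as part of a longer one. From primary tumor to mets 1 of 90 (1.11%, 0.196 to 6.03) was at least 20 points lower, against 5.12%, and 6 of 90 (6.67%, 3.09 to 13.8) at least 20 points higher, against 12.9%. The single region of the former kind was at Cdh2, and the 6 of the latter were 4 at Grhl2 and 2 at Snai1. The median change was −4.87 points in HPAF-II (quartiles −13.4 and 2.13) and 2.08 in KPC (quartiles −4.85 and 8.64), against −4.65 and 3.67 over all shared regions. By the ranking of shared regions only, both medians changed sign, to 0.610 and −0.370, against genome-wide values of 0.676 and 0.988. By role, the KPC medians were 6.23 points for the epithelial genes (34 regions), 2.55 for the transcription factors (40) and −3.73 for the mesenchymal structural genes (16). The epithelial value pooled Cdh1 (4.01) and Grhl2 (16.4), and the mesenchymal value Vim (0.473) and Cdh2 (−10.3). In HPAF-II the role medians were −4.50 (39), −4.69 (34) and −7.91 (25), the last pooling VIM (0.511) and CDH2 (−13.0). By the ranking of shared regions only, the role medians in that order were 3.25, −0.928 and −7.07 in KPC and 2.41, 0.240 and −1.29 in HPAF-II.

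Motif content at the loci was close to that of each list. CAGGTG, the letters bound by ZEB and SNAI factors, was present on either strand in 49 of 122 control regions (40.2%, 31.9 to 49.0, against 43.95% of the list) and in 48 of 99 HNF4G-KO regions (48.5%, 38.9 to 58.2, against 43.5%). It was present in 31 of 96 primary tumor regions (32.3%, 23.8 to 42.2, against 34.0%) and in 36 of 109 mets regions (33.0%, 24.9 to 42.3, against 29.2%). The regions over the ZEB1, SNAI1, SNAI2, CDH1 and GRHL2 start sites held it in both HPAF-II lists, and the VIM start-site region held it in neither. In control the regions with it were 551 to 1414 bp wide, against a median of 462 bp over the list. The share over all start-site regions is not given here, so no excess at these genes can be read from this. AP-1 was present in 31.1% and 32.3% of control and HNF4G-KO regions and in 44.8% and 45.0% of primary tumor and mets regions, against 31.4%, 31.8%, 38.3% and 36.4%. HNF4 was present in 1 region in each list, against 1.596%, 1.395%, 1.484% and 1.281% of the same lists. GRHL was present in none, against 0.224%, 0.239%, 0.282% and 0.225%, so that few or no matches would be found at this number of regions in any case. Of 32 motif shares, 1 had an interval that left out the share of its list, RUNX in control (1 of 122, 0.820%, 0.145 to 4.50, against 4.90%).

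Other genes of the EMT program were examined by the same measures. All 20 epithelial genes examined beyond the members had a region over a start site in both HPAF-II lists, against 65.7% of protein-coding genes in control and 65.4% in HNF4G-KO. They include the tight junction genes CLDN4 and CLDN7, the splicing factors ESRP1 and ESRP2 and, from the markers above, EPCAM and the keratins KRT8, KRT18 and KRT19. In KPC cells 14 of 20 had one in the primary tumor and 11 of 20 in mets, against 52.3% and 51.9%. Of the 20 HPAF-II regions, all shared, 14 ranked higher and 6 lower in HNF4G-KO, where 44.7% of all shared start-site regions were higher. Of 12 shared KPC regions 5 were higher and 7 lower in mets, where 61.1% of all were higher. The EPCAM start-site region was at percentile 94.5 in control and 98.2 in HNF4G-KO, and Epcam was at 16.1 in the primary tumor and 13.9 in mets. The keratin gene Krt8 was at 31.7 and 43.2, and the desmosome gene Dsp at 36.7 and 21.9. Cdh3, Grhl3 and Ovol1 had a region over a start site in the primary tumor and not in mets, at percentiles 41.9, 10.4 and 0.0558, although the Grhl3 region overlapped a mets region at 4.76 within 1 kb. Of 20 mesenchymal genes 12, 10, 7 and 8 had one in control, HNF4G-KO, primary tumor and mets, against the same shares of coding genes. Of the 10 control regions shared with HNF4G-KO 3 were higher and 7 lower, and of 7 primary tumor regions shared with mets 4 were higher and 3 lower. TAGLN, an actin-binding protein gene, had a region over its start site in control alone, at 33.7. FN1, the fibronectin gene, was at 55.6 in control and 31.8 in HNF4G-KO. The collagen gene COL1A1 was at 86.7 and 94.1, and the integrin gene ITGB3 at 36.95 and 63.85. The smooth muscle actin gene ACTA2 was at 47.5 and 83.8, where the HNF4G-KO region also overlapped a control region at 83.9.

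Of 17 other EMT transcription factors 11 had a region over a start site in control, 10 in HNF4G-KO, 10 in the primary tumor and 11 in mets, against 65.7%, 65.4%, 52.3% and 51.9% of protein-coding genes. Of 11 shared HPAF-II regions 4 were higher and 7 lower in HNF4G-KO, and of 10 shared KPC regions 8 were higher and 2 lower in mets. Over all shared start-site regions 44.7% were higher in HNF4G-KO and 61.1% in mets, and the difference was not tested. Tcf4, a helix-loop-helix partner factor, was at percentile 90.4 in the primary tumor and 94.5 in mets, while TCF4 was at 33.0 in control and 25.6 in HNF4G-KO. HMGA2, an architectural chromatin protein, was at 67.5 and 51.9 in HPAF-II, and Hmga2 at 53.5 and 67.2 in KPC. The miR-200 family and miR-205 target ZEB1 and ZEB2, and 3 of their 6 hairpins had a region within 1 kb in each list. These were MIR200C, MIR141 and MIR200B in HPAF-II and Mir141, Mir200a and Mir429 in KPC, and the share over all hairpins is not given here. The MIR200C and MIR141 hairpins shared 1 HPAF-II region at 76.8 in control and 74.6 in HNF4G-KO, and Mir200a and Mir429 shared 1 KPC region at 43.3 in the primary tumor and 40.3 in mets. One-list shares in the windows of the 3 gene sets lay between 17.65% and 26.9% for control and between 4.70% and 8.81% for HNF4G-KO. For the primary tumor they lay between 5.83% and 8.33%, and for mets between 14.7% and 19.8%.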

How the data were processed

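ATAC-seq was performed on 16 samples in 4 groups of 4, assigned by their titles. The authors deposited 1 BED list per group with a score per region, whose scale is not stated, so the deposited score was used only as a percentile within its list. The submitters' processing notes name Bowtie2 2.2.6, MACS2 2.1.1.20160309 and DiffBind, and the builds hg38 and mm10, without roles. No HPAF-II region ran past a chromosome end of hg38, and no KPC region past one of mm10. The HPAF-II ATAC-seq data are described as combining the 4 replicates. How they were combined, and the peak threshold, read shift and depth for ATAC-seq, are not given in the sources used here. A longer list holds more weak regions, which moves both the share in one list and every percentile.

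Genes were taken from GENCODE v44 and vM21. Regions within 50 kb of a gene body were compared within each pair (1 bp overlap, longest overlap as partner) in Python 3.11.15 with pandas 2.3.3, after a check of the overlap routine on simulated data. No test was made, since each group has 1 list. Coordinates are 1-based. Named regions are those within 1 kb of a start site, the strongest per locus, the strongest in one list, and the 3 largest differences per pair and direction. The members and gene lists were chosen with earlier results of these data known. Alternatives covered overlap, score, list size, flank, gene assignment, pairing and left-out loci.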

Additional observations from a re-analysis of the deposited data

How the results depend on the processing

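No paired analysis was possible because each group of 4 replicates was represented by 1 region list. Of 46 alternative settings over the 4 one-list shares and the 2 median changes, 42 left the value within the interval of the main one. The other 4 were as follows. With lists of equal size, the one-list share was 10.2% in control, 14.6% in HNF4G-KO and 9.64% in mets, so that the order of control and HNF4G-KO reversed. Over all regions these shares were 13.7%, 11.7% and 13.0%, without that reversal. With percentiles ranked among shared regions alone, the median change from control to HNF4G-KO was 0.610 points in place of −4.87. The median from primary tumor to mets also changed sign under that ranking, to −0.370, inside its interval of −0.824 to 5.89. Without Cdh1, the locus with the most regions, that median was 0.733 and the mets-alone share 19.8%.

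Depth, library strength and accessibility cannot be told apart in lists of this kind, and 1 cell line stands for each KPC condition. A difference in percentile at 1 region has no error. Window sizes follow the gene annotation, and regions in a window need not act on the gene: with regions limited to those nearest to a member's own start site, the one-list shares were 17.9%, 5.06%, 7.25% and 15.6%.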

Other observations

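Several other EMT genes, picked here after their values were seen, had unequal numbers of one-list regions in KPC cells. Of the regions within 50 kb of the mesenchymal matrix genes, 9 of 14 at Fbn1, 8 of 16 at Tgfbi, 6 of 17 at Sparc and 2 of 2 at Lox were in mets alone, while 0 of 6, 0 of 8, 0 of 11 and 0 of 0 primary tumor regions were in that list alone. Epithelial loci were also among them, with 7 of 26 at Tjp1, 6 of 16 at Cldn4 and 5 of 8 at Ovol2 in mets alone. Over the whole mets list the share was 20.2%, and none of these differences was tested.

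In HPAF-II the locus of the chromatin factor HMGA2 had 10 of 22 control regions absent from HNF4G-KO, and that of TCF4 had 7 of 15. Among epithelial genes KRT8 and TJP1 had 8 of 32 and 8 of 24, against 25.0% over the whole control list. These loci were picked from larger sets. The 20 epithelial genes together had 60 of 340 control regions in control alone (17.65%), and ELF3, ESRP2, KRT19 and RAB25 had 0. The 17 other EMT transcription factors together had 53 of 197 (26.9%).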
